A study of Mus musculus with 18 samples.

Results

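The 9 genes described here act in ER-associated degradation (ERAD), the route by which misfolded proteins leave the endoplasmic reticulum (ER) and are destroyed in the cytosol. They were picked by name, with earlier results of these data known: Os9, Edem1, Edem2, Sel1l, Syvn1, Herpud1, Derl1, Derl2 and Derl3, which are 9 of 33440 genes in the data. All 9 were found. RNA was sequenced from mouse adipocytes in which the transcription factor IRF3 had been activated or removed, in 18 libraries.

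In the first experiment, cells of the stromal vascular fraction (SVF) of inguinal white adipose tissue were taken from C57BL/6 mice of 4 to 6 weeks that carry the IRF-2D knock-in allele (IRF3-2D in the study's methods), a constitutively active Irf3 that stays silent until Cre acts. The cells were differentiated to adipocytes in culture, transduced on day 6 and harvested on day 8. WT cells (3 libraries) received AAV-GFP and FI3OE cells (3 libraries) AAV-GFP-Cre, so both groups carry the knock-in allele and a virus, and FI3OE cells differ from WT in Cre as well as in IRF3. In the second experiment, RNA on tagged ribosomes was pulled down with an anti-GFP antibody (TRAP, translating ribosome affinity purification) from epididymal white adipose tissue of FI3KO mice (6 libraries), whose floxed Irf3 is deleted by Cre under the Adipoq promoter, and of WT mice (6 libraries). Both of these groups were fed HFD for 8 weeks at thermoneutrality. That duration is the one in the labels. The study's methods describe the age and sex of male mice fed HFD for longer, and do not say whether this covers the TRAP mice, so neither is given here. The promoter that drives the ribosome tag is not given in the sources used here. The labels call the libraries biological replicates, but separate cultures or animals are not described, so p-values measure only the spread between these libraries. The comparisons ask how gain and loss of IRF3 in adipocytes bear on the expression of these genes.

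In ERAD, a misfolded glycoprotein is first marked in the ER lumen. Mannosidases of the EDEM family trim its sugar chain, and lectins such as OS9 bind the trimmed chain and bring the protein to SEL1L. SEL1L holds together a membrane complex around SYVN1 (also called HRD1), a ubiquitin ligase, with HERPUD1 as an organising subunit and the derlins as part of the channel. The ATPase VCP then draws the protein into the cytosol, where the proteasome degrades it. Several of these genes are known targets of the unfolded protein response (UPR), which runs through the sensors IRE1, PERK and ATF6, and adipocytes are secretory cells with a constant load of proteins such as adiponectin in the ER.

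Promoter sequence is shown because members of 1 pathway moved together in FI3OE cells, by unlike amounts. Promoters of 300 bases (250 before to 50 after the start site, RefSeq, GRCm38.p6) were at hand for 8 of the 9 genes, and both strands were searched for 4 motifs. The ER stress response element ERSE (CCAAT, then any 9 bases, then CCACG), which ATF6 and XBP1 are known to bind together with NF-Y, was found in 2 members, Derl3 and Syvn1. ERSE-II (ATTGG, then any base, then CCACG) was found in 1 member, Herpud1. Of all 32851 promoters, 0.119% held an ERSE and 0.037% an ERSE-II. The 2 motifs share their CCACG part and the CCAAT box, read on the other strand in ERSE-II. The XBP1-bound element UPRE (TGACGTGG), in 0.676% of promoters, and a tandem GAAA repeat of IRF sites (GAAA, then any 2 bases, then GAAA), in 3.443%, matched 0 of the 8. The UPRE overlaps the CCACG part on the other strand. Promoters of 41 of the 50 genes of the other ERAD and UPR lists used further on were searched too. Of these, Hspa5 held an ERSE, Txndc11, Ube2j1 and Vcp a UPRE, and Ppp1r15a, a UPR gene, the GAAA repeat. The matches are letters in a window and no measure of binding. As several of the 9 genes are known targets of the UPR, matches to its elements are no independent support. The matched stretches, each with 20 bases on either side, are given here with the fixed letters of the motif in capitals, along with that of Hspa5, which codes for the ER chaperone BiP. That of Derl3 lies at chr10:75893222-75893280, that of Syvn1 at chr19:6046512-6046570, that of Herpud1 at chr8:94386357-94386407 and that of Hspa5 at chr2:34772005-34772063. All are printed on the strand of the gene, which is the plus strand. In Derl3 the ERSE lies in antisense.
Derl3: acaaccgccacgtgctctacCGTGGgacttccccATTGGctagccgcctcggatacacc
Syvn1: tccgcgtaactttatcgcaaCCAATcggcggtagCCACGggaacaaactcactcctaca
Herpud1: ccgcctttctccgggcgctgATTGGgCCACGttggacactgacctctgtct
Hspa5: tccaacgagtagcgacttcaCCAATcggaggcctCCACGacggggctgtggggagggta

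Libraries of FI3OE cells held 23659055 to 36932452 reads and those of WT cells 21541334 to 25403517. FI3KO TRAP libraries held 25259869 to 40490283 reads and WT TRAP libraries 25729179 to 37933320. Levels are given as CPM, the reads of a gene scaled to the total of its library, and fold changes and their standard errors (SE) come from edgeR's quasi-likelihood test. A gene is called where its p-value, adjusted over all genes tested, was at most 0.05. Irf3 read 94.4 ± 5.2 CPM in FI3OE (SD, n = 3) against 57.4 ± 1.0 in WT cells (n = 3), a log2 fold change of 0.73 (adjusted p = 3.3e-07). In TRAP it read 15.5 ± 2.2 CPM in FI3KO (n = 6) and 20.4 ± 2.1 in WT (n = 6), a log2 fold change of -0.35 (adjusted p = 0.0198). This call was lost in a fit with a block on the replicate number. The protein-coding transcript model Irf3-202 had 0.0 reads in all FI3KO libraries against 163.6 to 388.1 in the WT libraries, whereas the short model Irf3-211 had 89.9 to 175.3 reads in FI3KO and 0.0 to 7.6 in WT. Longer protein-coding models kept reads in FI3KO, with 81.7 to 132.9 on Irf3-213 (0.0 to 175.4 in WT) and 0.0 to 99.4 on Irf3-201 (10.7 to 73.7 in WT). In a fit that corrects for transcript length the log2 fold change of Irf3 in TRAP turned to 0.71 (adjusted p = 0.00181), and the cause was not tested. Adipocyte markers (8 genes) summed to 5911 to 6170 CPM in the SVF-derived libraries and 21864 to 30142 in the TRAP libraries.

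In SVF-derived adipocytes, 8 of the 9 ERAD genes were lower in FI3OE than in WT cells and none was higher, where of all 16105 genes tested 37.0% were called, 16.8% lower and 20.2% higher. By edgeR at an unadjusted p under 0.05, and by DESeq2, the counts were likewise 8 lower and 0 higher. The fall was largest for Derl3 (7.72-fold) and Herpud1 (2.96-fold), followed by Sel1l (1.96-fold), Syvn1 (1.64-fold) and Edem1 (1.54-fold). Derl2, Derl1 and Edem2 fell by 1.30-, 1.23- and 1.22-fold. Os9 read the same in both groups within an SE of 0.040 on the log2 scale. Each of the 8 genes called was lower in every FI3OE library than in every WT library, a pattern seen in 25.7% of all genes tested. The median log2 fold change of the 9 genes was -0.62, against -0.005 over all genes tested. In bulk RNA of this kind, fewer cells of a type and less RNA per cell cannot be told apart.

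**Figure D1:**
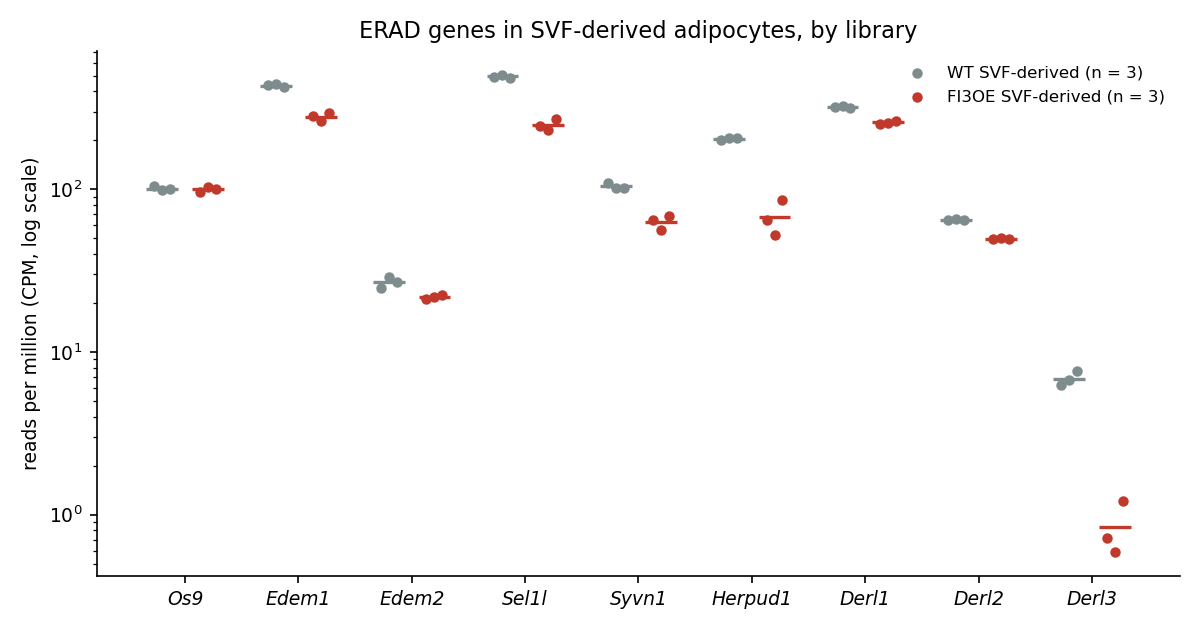
CPM (log axis) of the 9 ERAD genes in each library of WT (grey) and FI3OE (red) SVF-derived adipocytes, with 3 points per group and a line at the mean. All FI3OE points lie under all WT points for every gene but Os9, and the gap is widest for Derl3.

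Of the luminal factors, Edem1 and Edem2 fell and Os9 did not pass the test. Edem1, which codes for a mannosidase-like protein, read 283, 262 and 293 CPM in FI3OE replicates 1 to 3 and 438, 442 and 423 in WT replicates 1 to 3. All FI3OE values lay below 300 and all WT values above 400, and the log2 fold change was -0.62 (SE 0.043, adjusted p = 6.82e-07). Edem2, the mannosidase that takes the first step of trimming, fell by less. It read 21.1, 21.6 and 22.4 CPM in FI3OE and 24.8, 29.0 and 26.9 in WT, a small gap with no overlap and a log2 fold change of -0.29 (SE 0.066, adjusted p = 0.00561). Os9 was the exception among the members. Its values were 96.4, 103.4 and 100.4 CPM in FI3OE and 104.1, 98.6 and 100.6 in WT, so the groups lay across each other. The log2 fold change of Os9 was 0.00 with a 95% interval of -0.08 to 0.08 (adjusted p = 0.965), a range that ends far above the -0.62 of Edem1.

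The ligase complex at the membrane was lower in its 3 members here. Sel1l, the scaffold, read 246, 231 and 270 CPM in FI3OE and 493, 507 and 482 in WT, so the highest FI3OE library still lay far under the lowest WT library. The log2 fold change of Sel1l was -0.97 (SE 0.051, adjusted p = 7.33e-08). Syvn1, the ubiquitin ligase that SEL1L holds, read 64.4, 55.9 and 68.3 CPM in FI3OE and 109, 102 and 102 in WT, with a log2 fold change of -0.71 (SE 0.061, adjusted p = 3.63e-06). Its exons overlap those of Mrpl49, and whether counting used strand is not given in the sources used here, so some of its reads are uncertain. Herpud1, the organiser of the complex and a short-lived protein itself, fell further than both. It read 64.6, 52.5 and 85.9 CPM in FI3OE against 200.01, 205.5 and 205.6 in WT, with a log2 fold change of -1.57 (SE 0.13, adjusted p = 2.37e-06). The spread of Herpud1 was wide in FI3OE (a coefficient of variation of 25.0%) and narrow in WT (1.58%).

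The derlins, membrane proteins of the rhomboid family that lack protease activity, were all lower, by amounts of unlike size. Derl1 read 253, 256 and 264 CPM in FI3OE and 319, 326 and 316 in WT, with a log2 fold change of -0.30 (SE 0.036, adjusted p = 6.15e-05). Derl2 read 49.3, 50.1 and 49.3 CPM in FI3OE and 65.0, 65.6 and 64.6 in WT, with a log2 fold change of -0.38 (SE 0.038, adjusted p = 1.37e-05). Both changes were small and the replicates tight, and part of the reads of Derl2 are uncertain since its exons overlap those of Mis12. Derl3, the derlin known from cells that secrete heavily, stood at 1.22 CPM or less in FI3OE. It had 17, 16 and 45 reads in FI3OE against 149, 144 and 193 in WT, which is 0.719, 0.591 and 1.22 CPM against 6.23, 6.68 and 7.60. The log2 fold change of Derl3 was -2.95 (SE 0.22, adjusted p = 1.39e-06), the largest of the 9 and also the one that rests on the fewest reads.

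With 3 libraries against 3, an exact permutation test (two-sided) cannot go below p = 0.1, the value reached by all 8 genes called (0.7 for Os9). By the stricter cutoffs of the study, which also ask for a log2 fold change of 1 or more in size, Derl3 and Herpud1 were called lower and none higher, where 3.62% of all genes tested were called, 1.63% lower and 1.99% higher. A fit of all 18 libraries shares 1 estimate of spread between both experiments. There 7 members were called, and Derl1 was lost (log2 fold change -0.29, adjusted p = 0.160). That fit also called far fewer of all genes than the 5960 called in the main fit, with its count given at the end of the text.

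FI3OE libraries did not stand at 1 level. FI3OE replicate 3 was the highest of its group for 7 of the 9 genes and replicate 2 the lowest for 5. Irf3 was highest in replicate 2, with 92.1, 100.3 and 90.8 CPM in replicates 1 to 3, and the part of this in the spread was not tested. Without FI3OE replicate 3, 8 members were again called lower, with a log2 fold change of -3.36 for Derl3 and -1.78 for Herpud1. Macrophage markers (10 genes) summed to 1887 to 1919 CPM in FI3OE and 2021 to 2144 in WT, with 2 of the 10 called higher and 3 lower, and their part in the result was not tested. The plasma and B cell markers (8 genes), which mark cells rich in ERAD proteins, summed to under 1 CPM in every SVF-derived library, with Mzb1, Igkc and Pou2af1 at 0.

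The reads of a gene fall on several transcript models, which had like ratios in some members and unlike ratios in others. Protein-coding models of Sel1l and its models with a retained intron both had a log2 ratio of -0.99 between FI3OE and WT, the latter reading 25.2 ± 2.9 CPM against 50.0 ± 5.3 (SD, n = 3). Herpud1 had a ratio of -1.54 for coding models and -1.77 for models marked for nonsense-mediated decay. In Derl1 and Edem1 the coding model was lower and the processed transcript, which codes for no protein, was level. The coding model of Derl1 had a ratio of -0.34, while its processed transcript read 21.4 CPM in FI3OE and 21.3 in WT. The coding model of Edem1 had a ratio of -0.65, while its processed transcript read 7.96 CPM in FI3OE and 8.17 in WT. Models with a retained intron had lower ratios than coding models in Syvn1 (-1.19 against -0.71), Edem2 (-0.58 against -0.27), Derl2 (-0.63 against -0.37) and Edem1 (-0.96). In Derl3, which has few reads, the coding models fell further. They read 0.337 CPM in FI3OE against 5.27 in WT, and its models with a retained intron 0.378 against 1.51. These ratios were not tested, as the split of reads between models is an estimate.

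**Figure D2:**
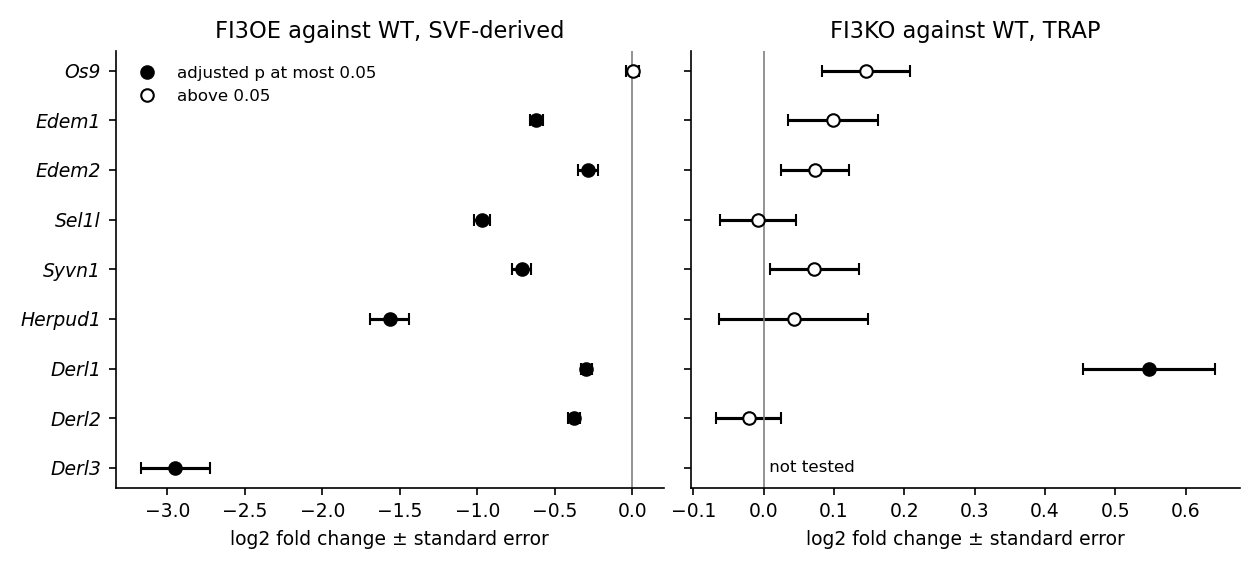
Log2 fold change with its standard error for the 9 ERAD genes in FI3OE against WT SVF-derived adipocytes (left) and FI3KO against WT in TRAP (right), with filled points for an adjusted p of at most 0.05 and a scale of its own on each side. The left side runs from -2.95 for Derl3 to 0.00 for Os9, and on the right Derl1 alone is filled, at 0.55. Derl3 was not tested in TRAP and has no value on the right.

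Another 40 ERAD genes were arranged by where their proteins act. Calls were mostly lower in the luminal group, went both ways in the membrane group and were mostly higher in the cytosolic group. Of all genes tested, 16.8% were lower and 20.2% higher, and the difference between the groups was not tested. Of 10 luminal genes, 6 were lower and 1 higher in FI3OE, and the median of their log2 fold changes was -0.42. Hspa5, which codes for the chaperone BiP, read 867 ± 188 CPM in FI3OE (SD, n = 3) against 2756 ± 101 in WT (n = 3), a log2 fold change of -1.65 (adjusted p = 6.94e-07). Sdf2l1, which codes for a partner of BiP and its co-chaperones, read 14.4 ± 4.4 CPM against 65.3 ± 4.5, a log2 fold change of -2.13. Dnajb9, a BiP co-chaperone, fell by 0.76 on the log2 scale, from 89.7 to 52.1 CPM. Erlec1, a lectin like OS9, was the 1 luminal gene called higher, at 0.16, and lost its call when any 1 of 4 of the 6 libraries was left out.

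Of 16 genes of the membrane complexes, 4 were lower and 4 higher. The lower ones included Selenos, a selenoprotein that binds VCP (log2 fold change -0.31), and the ligase gene March6 (-0.21). The higher ones included Faf2 (0.24), Aup1 (0.23) and the ligase gene Rnf139 (0.23). Of 14 genes of extraction and handling in the cytosol, 1 was lower and 5 higher, among them the ubiquitin shuttle genes Rad23b (0.28) and Ubqln1 (0.23). Over the 40 genes, 11 were lower and 10 higher, with a median log2 fold change of 0.02. In the fit of all 18 libraries, which called far fewer of all genes, these counts were 5 lower and 3 higher. Of 10 genes for sensors and transcription factors of the UPR, 8 were lower and none higher (as at an unadjusted p under 0.05 and by DESeq2), with a median of -0.37. Among them were Ddit3, which codes for CHOP (49.8 to 25.7 CPM, log2 fold change -0.93), the sensor gene Eif2ak3, which codes for PERK (-0.64), and the sensor gene Atf6 (-0.60). Of all genes tested in the main fit, 16.8% were lower and 20.2% higher. In the fit of all 18 libraries, which called far fewer of all genes, 5 of the 10 UPR genes were lower.

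**Figure D3:**
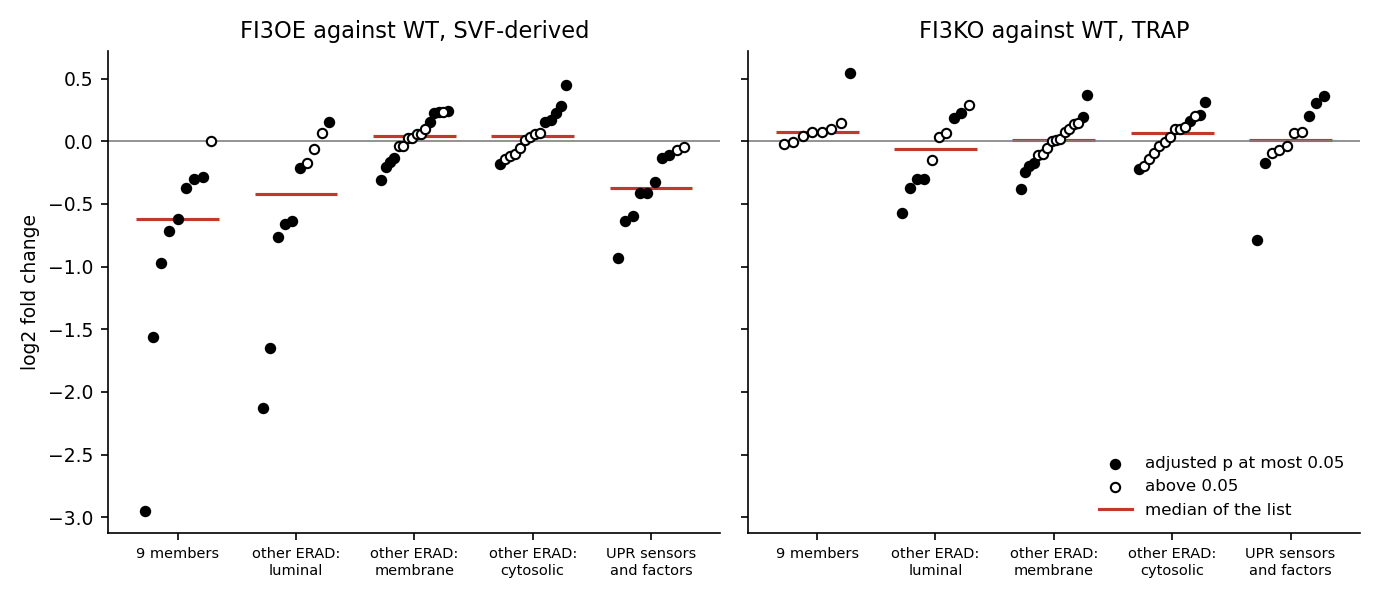
Log2 fold change of each gene tested of 5 lists in FI3OE against WT SVF-derived adipocytes (left) and FI3KO against WT in TRAP (right), sorted within a list, with filled points for an adjusted p of at most 0.05 and a red line at the list's median. On the left the medians are -0.62 for the 9 genes, -0.42 for the other luminal genes and -0.37 for the UPR genes, and those of the membrane and cytosolic lists lie near 0.

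In TRAP from epididymal fat, 1 of the ERAD genes differed between FI3KO and WT. Derl1 was higher in FI3KO, and none was called lower, where of all 13624 genes tested 37.4% were called, 19.1% higher and 18.3% lower. At an unadjusted p under 0.05 edgeR gave 2 higher and 0 lower, and DESeq2 called 1 higher and 0 lower. The 8 genes tested had a median log2 fold change of 0.07, against 0.02 over all genes tested. Derl3 was too scarce to be tested. By the study's cutoffs none of the members was called, where 6.61% of all genes tested were.

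Derl1 ranged from 351 to 478 CPM in the 6 FI3KO libraries (median 430) and from 268 to 342 in the 6 WT libraries (median 287). Every FI3KO library lay above every WT library, as was the case for 5.39% of all genes tested. The log2 fold change of Derl1 was 0.55 (SE 0.093, adjusted p = 9.15e-04), and the exact permutation test (two-sided) gave p = 0.00216. The change rests on replicates 3 to 6, as set out further on.

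The other luminal and complex members overlapped between the genotypes. Edem1 ranged from 647 to 725 CPM in FI3KO (median 681) and from 619 to 711 in WT (median 637), with a log2 fold change of 0.10 (95% interval -0.03 to 0.22, adjusted p = 0.238). With correction for transcript length the value of Edem1 turned to -0.12. Edem2 had a log2 fold change of 0.07 (-0.02 to 0.17, adjusted p = 0.253). Os9 ranged from 87.7 to 100.8 CPM in FI3KO (median 92.8) and from 80.8 to 97.2 in WT (median 84.8), with a log2 fold change of 0.15 (0.02 to 0.27, adjusted p = 0.0830). It passed the threshold without WT replicate 1 (adjusted p = 0.0304).

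Sel1l ranged from 327 to 349 CPM in FI3KO and from 319 to 365 in WT, with a log2 fold change of -0.01 (-0.11 to 0.10, adjusted p = 0.924). Syvn1 gave 0.07 (-0.05 to 0.20, adjusted p = 0.395). Herpud1 ranged from 34.0 to 49.4 CPM in FI3KO and from 35.4 to 49.4 in WT, and gave 0.04 (-0.17 to 0.25, adjusted p = 0.777). The sign of Herpud1 changed with correction for transcript length. Derl2 gave -0.02 (-0.11 to 0.07, adjusted p = 0.7499). Derl3 had 2 to 9 reads in FI3KO libraries and 3 to 25 in WT libraries, or 0.169 ± 0.079 against 0.292 ± 0.203 CPM (SD, n = 6), and a difference was not detectable at this depth (exact permutation test, two-sided, p = 0.214).

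TRAP replicates 1 and 2 were compared with replicates 3 to 6, a division that is known from earlier work on these data and that the labels do not name. By the chi-square per degree of freedom of their counts, FI3KO libraries were farther from each other across the sets (111 to 268) than within them (16.9 to 86.3). In WT these ranges overlapped, with 74.4 to 130 across the sets and 8.41 to 126 within replicates 3 to 6. Some libraries were close in pairs, WT replicates 1 and 2 most of all, then WT replicates 4 and 6, and FI3KO replicates 5 and 6, 3 and 4, and 1 and 2. The labels do not say whether such pairs share an animal or a pool, and if they do, the p-values of the TRAP comparisons are too small. The effect of FI3KO differed between the sets for 3 of the 8 members tested, where 26.5% of all 13624 genes did. The division came from these same data, so p-values for a difference between the sets describe it and are no support. For Herpud1, a target of the UPR, the sets lay on opposite sides. It read 34.0 and 36.5 CPM in FI3KO replicates 1 and 2 against 49.4 and 48.8 in WT, and 48.1, 49.4, 42.1 and 43.0 in FI3KO replicates 3 to 6 against 35.4, 40.0, 39.7 and 39.4 in WT. FI3KO was thus the lower group in the first set and the higher in the second, with log2 fold changes of -0.42 (adjusted p = 0.0519) and 0.28 (adjusted p = 0.00713) and a difference of 0.70 (SE 0.11, adjusted p = 9.81e-04).

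Derl1 lay higher in FI3KO in both sets, by unlike amounts. It read 377 and 351 CPM in FI3KO replicates 1 and 2 against 342 and 336 in WT, and 418, 442, 478 and 477 in FI3KO replicates 3 to 6 against 298, 268, 273 and 277 in WT. The log2 fold change was 0.17 (adjusted p = 0.212) and 0.75 (adjusted p = 1.21e-05), and the difference 0.59 (SE 0.11, adjusted p = 0.00215). Os9 read 88.6 and 87.7 CPM against 97.2 and 92.4 in the first set, and 91.1, 94.5, 97.5 and 100.8 against 84.8, 84.8, 80.8 and 82.6 in the second. The difference for Os9 was 0.30 (adjusted p = 0.0292), and it was lost without FI3KO replicate 2 (adjusted p = 0.0774) or WT replicate 1 (0.124), 2 (0.0608) or 6 (0.0652). Within replicates 3 to 6, Derl1, Herpud1, Os9 and Edem1 were called higher, where 50.6% of 13692 genes tested were called and 25.7% were higher. Within replicates 1 and 2, none of the members was called by edgeR (1, Herpud1, was lower at an unadjusted p under 0.05), where 3.56% of 14040 genes were. The difference for Edem1 between the sets was 0.12 (adjusted p = 0.360).

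**Figure D4:**
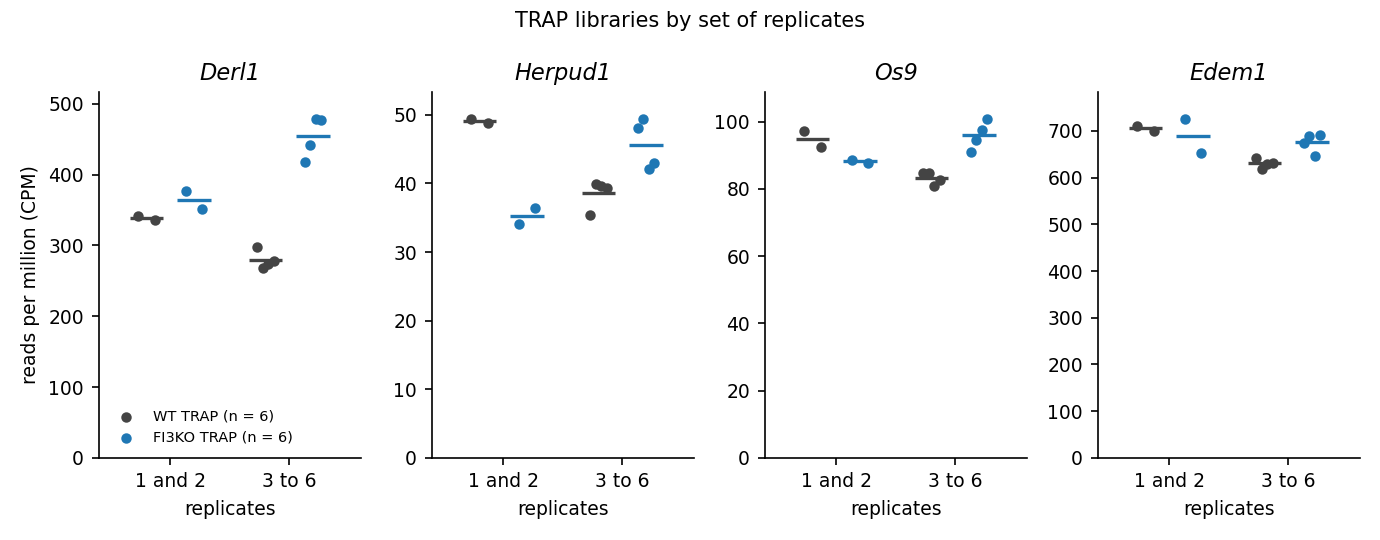
CPM of Derl1, Herpud1, Os9 and Edem1 in each TRAP library of WT (dark grey) and FI3KO (blue) mice, divided into replicates 1 and 2 and replicates 3 to 6, with a line at the mean and an axis from 0 for each gene. Herpud1 is lower in FI3KO on the left of its panel and higher on the right, and Derl1 is set apart most in replicates 3 to 6.

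Markers of adipocytes and of other cells moved with genotype in TRAP. Adipocyte markers (8 genes) summed to 21864 to 25496 CPM in FI3KO and 25177 to 30142 in WT, with 3 called higher and 1 lower. Among them, Lep read 2975 CPM in FI3KO against 9581 in WT in the mean, and Cfd 2395 against 685. Macrophage markers (10 genes) summed to 11.4 to 37.4 CPM in FI3KO and 32.0 to 87.4 in WT, and 7 of the 8 tested were called lower. Fibroblast and preadipocyte markers (7 genes) summed to 540 to 1020 CPM in FI3KO and 968 to 2196 in WT, with 3 lower and 1 higher. The plasma and B cell markers summed to 322 to 602 CPM in FI3KO and 529 to 863 in WT, nearly all of it Ighm, while Tnfrsf17 was at 0 in FI3KO and Mzb1 at 0 in WT. After Ighm the highest of the list was Igkc, at 0.290 CPM in FI3KO and 0.343 in WT in the mean. This sum thus follows 1 gene and is no measure of such cells. The part of the makeup of cells in the values of the ERAD genes was not tested.

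Of the 40 other ERAD genes, 7 were higher and 9 lower in FI3KO, shares near those of all genes tested (19.1% higher and 18.3% lower). In the lumen, Dnajb9 (log2 fold change -0.57), Hspa5 (-0.38, 494 to 368 CPM) and Txndc11, an oxidoreductase gene (-0.30), were among 4 lower, and Dnajc10 (0.23) and Man1b1 (0.18) were the 2 higher. At the membrane, the conjugating enzyme gene Ube2j1 (-0.38) and Faf2 (-0.25) were among 4 lower, and the ligase gene March6 (0.37) was among the 2 higher. In the cytosol, Vcp (0.21) and Get4 (0.16) were among the 3 higher, and Ubl4a (-0.22) was the 1 lower. Ubl4a lost its call when any 1 of 9 of the 12 libraries was left out. Of the 10 UPR genes, Xbp1 (0.36), Mbtps1 (0.30) and Ern1 (0.20), which codes for IRE1, were higher, and Ddit3 (-0.79) and Eif2ak3 (-0.17) were lower. The call of Eif2ak3 was lost without a filter on low counts (adjusted p = 0.0622). In replicates 1 and 2 alone, where fewer libraries were tested, the log2 fold change was -0.10 for Ddit3, 0.10 for March6, -0.07 for Faf2, -0.29 for Dnajb9, -0.20 for Hspa5, 0.20 for Xbp1 and -0.10 for Eif2ak3, and none of these was called. In this set edgeR called 0 of the other ERAD genes higher and 1 lower, or 3 and 9 at an unadjusted p under 0.05.

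The levels of the 9 genes in WT cells were compared per length, in TPM, a scale that corrects for transcript length so that genes can be set beside each other. In WT SVF-derived adipocytes Herpud1 stood first with 317 ± 12 TPM (SD, n = 3), followed by Derl1 (238 ± 12), Edem1 (206 ± 7.7), Sel1l (186 ± 9.2), Os9 (97.9 ± 3.0), Derl2 (84.4 ± 6.1), Syvn1 (82.5 ± 3.5), Edem2 (30.6 ± 3.1) and Derl3 (18.3 ± 2.5). Derl2 and Syvn1 overlapped, and all other neighbours in this order were apart in every library. The order depends on which models are counted. Counting protein-coding models only, Derl1 (183 ± 2.0 TPM) stood above Herpud1 (163 ± 5.3), Sel1l (129 ± 3.3) overlapped Edem1 (127 ± 3.0), and Syvn1 (79.1 ± 3.6) stood apart above Derl2 (51.5 ± 6.3).

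In WT TRAP the order was Edem1 with 255 ± 24 TPM (SD, n = 6), Derl1 (236 ± 31), Sel1l (108 ± 5.4), Os9 (91.6 ± 7.6), Derl2 (74.2 ± 7.9), Syvn1 (71.7 ± 4.6), Herpud1 (56.7 ± 9.0), Edem2 (43.7 ± 2.6) and Derl3 (0.82 ± 0.47). Here Edem1 and Derl1 overlapped, as did Sel1l and Os9, Derl2 and Syvn1, Syvn1 and Herpud1, and Herpud1 and Edem2. Counting protein-coding models only, Syvn1 (70.4 ± 4.8) stood apart above Derl2 (55.5 ± 6.1), which overlapped Herpud1 (43.3 ± 7.5), and the other places were the same. Herpud1, first in culture, was the seventh in TRAP, and Derl3 was the last in both.

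**Figure D5:**
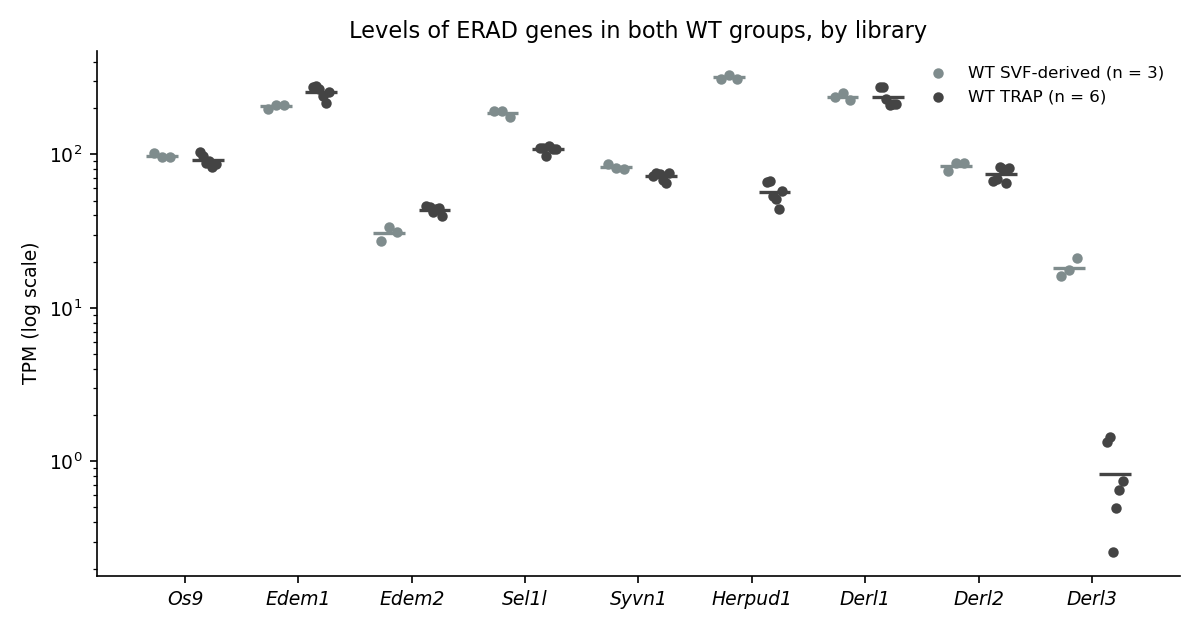
TPM (log axis) of the 9 ERAD genes in each library of WT SVF-derived adipocytes (light grey, 3 points) and WT TRAP (dark grey, 6 points), with a line at the mean. Herpud1 and Derl3 lie lower in TRAP, at 56.7 and 0.82 TPM, than in culture, at 317 and 18.3, as does Sel1l, at 108 against 186. Counting protein-coding models only, which are not drawn, Sel1l is at 105 against 129. Edem1, at 255 against 206, and Edem2, at 43.7 against 30.6, lie higher in TRAP.

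Depot, diet, culture and ribosome-bound against total RNA all differ between these WT groups and cannot be told apart. Other cells differ as well. Fibroblast and preadipocyte markers summed to 13828 to 14202 CPM in WT cells, more than the adipocyte markers there, and 968 to 2196 in WT TRAP, with 5 of the 7 called lower and 1 higher in TRAP. Most of this sum in WT cells was Col1a1 (6839 CPM in the mean) and Col3a1 (5930), with Pdgfra at 442. The sums of the lists thus do not measure shares of cells. Macrophage markers summed to 2021 to 2144 CPM in WT cells and 32.0 to 87.4 in WT TRAP, with 9 of the 10 called lower and 1 higher. Their part in the differences was not tested. By edgeR on counts, 5 members were higher and 3 lower in WT TRAP, where 38.1% and 42.1% of 16454 genes tested were, so that 80.2% of all genes were called. Derl3, 1 of the 3 lower, had 3 to 25 reads a library in WT TRAP against 144 to 193 in WT cells (0.292 against 6.84 CPM). It passed the filter on low counts through the WT cells alone, so it could only be lower, and its call is no support. Of the others, the largest differences were those of Herpud1 (-1.81, SE 0.11, 42.1 against 203.7 CPM), Edem1 (1.05, SE 0.076, 656 against 434 CPM) and Edem2 (0.99, SE 0.066, 38.9 against 26.9 CPM), each with no overlap between the groups, as for 22.4% of all genes on the higher side and 55.9% on the lower. By the study's cutoffs Herpud1 and Edem1 were called besides Derl3, where 46.9% of all genes were. Over the alternatives the value of Edem1 went as low as 0.74, under the cutoff of 1. The other members had small differences that changed with the processing. Scaling factors differed between libraries, from 0.876 to 1.243. Derl1 (0.36), Os9 (0.25) and Syvn1 (0.15) were called higher although their plain CPM were lower in TRAP, and with at least 10 counts asked of every library their calls were lost and Syvn1 turned to -0.02. Derl2 (-0.14) turned to 0.24 with correction for length. Sel1l was at -0.04 (adjusted p = 0.575) but changed with the processing too. Its plain CPM were lower in every TRAP library than in every library of WT cells (349.6 against 493.8 in the mean), and it was called lower with at least 10 counts (-0.22, adjusted p = 0.00932) and with correction for length (-0.35, adjusted p = 7.34e-04). Of the 40 other ERAD genes 28 were higher and 7 lower. Some of the 28, Rad23b and Faf2 among them, had lower plain CPM in TRAP than in WT cells, so this count depends on the scaling. In the lumen the genes called included Sdf2l1 (-2.69) and Hspa5 (-2.02) on the lower side, and Edem3 (1.01) and Man1b1 (0.93) on the higher.

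The pattern of Derl3 over the 4 groups was high in WT SVF-derived cells, lower in FI3OE and lowest in TRAP. Of 12934 genes compared by the root mean square difference of centred mean log2 CPM over these 4 groups, Chchd10, a gene for a mitochondrial protein (0.51), Trib3, a pseudokinase gene known as a target of the UPR (0.52), and Mreg (0.54) were nearest to it. With 4 points, this likeness is a description.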

How the data were processed

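The authors deposited, for each of 18 libraries, estimated counts from Salmon (expected counts, with no normalization) and TPM (scaled for length and depth) of 118733 transcripts. Per the submitters' processing notes, reads were processed with fastp and Salmon (version 1.4.0) on GRCm38, with correction for sequence and GC bias. Models were assigned to genes with GENCODE M21, an older annotation than the authors' own: 117850 transcripts matched (99.26%), and 883 without a match each counted as 1 gene (0.37% to 1.08% of reads). Counts were summed per gene and rounded, and TPM were summed for levels.

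Comparisons were fitted separately with edgeR 4.0.16 in R 4.3.3 (filterByExpr, TMM, quasi-likelihood test, Benjamini-Hochberg over all genes tested). The CPM in the text are plain reads over the library total, with no TMM factor. DESeq2 1.42.0 served as an alternative. Intervals of 95% are normal ones around the fitted value. Exact permutation tests on log2(CPM + 0.1) used scipy 1.17.1. The edgeR script was tested on simulated data. Depth set the precision: 3 reads was taken as the floor of detection, which covers counting error only.

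The members and gene lists were chosen with earlier results of these data known, and the lists were written from general knowledge. Named genes are all members; in each list, comparison and direction, up to 3 genes with the largest absolute log2 fold change among those called whose mean log2 CPM was 1 or more; Irf3; and 3 genes nearest to Derl3. Some genes that this rule names are not reported here. Alternatives were other size factors, DESeq2's test, other filters, a length offset, a replicate block, a fit of all libraries, the study's cutoffs, each set of TRAP replicates alone, WT TRAP replicates 1 and 2 averaged, and each library left out. Those for the difference between the sets, for Irf3 and for genes of the lists were chosen after seeing the data.

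WT TRAP replicates 1 and 2 were closer to each other (chi-square per degree of freedom 2.54) than other TRAP pairs of the same group (8.41 to 268), but differed by more than counting error, and were kept as 2 libraries; the labels do not say whether they share an animal or a pool. Among FI3KO libraries, replicates 1 and 2 (34.9), 3 and 4 (17.6) and 5 and 6 (16.9) were closer than all other pairs (56.5 to 268). Proteins and the promoter of Derl1 were not analysed here.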

Additional observations from a re-analysis of the deposited data

Results flagged for a closer look

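Sel1l read 319.33 CPM in WT TRAP replicate 3, while the other 5 WT TRAP libraries lay between 349.6 and 365.0, so that the gap took 0.663 of the group's range. Of 18 groups of 6 libraries looked at in this way, chance alone would single out about 1 in 20.

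The effect of FI3KO differed between TRAP replicates 3 to 6 and replicates 1 and 2 for Derl1 (log2 difference 0.588), Herpud1 (0.705) and Os9 (0.299), by edgeR's test of the difference itself. The same was seen for 26.5% of all 13624 genes tested, and the division came from these same data. Over 19 other settings, chosen after seeing the data, the difference ranged from 0.52 to 0.67 for Derl1 (adjusted p from 5.93e-06 to 0.0140), from 0.67 to 0.78 for Herpud1 (9.53e-07 to 0.00727) and from 0.27 to 0.37 for Os9 (0.0145 to 0.124).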

How the results depend on the processing

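In FI3OE against WT cells, 8 members were lower whichever 1 library was left out, and also with the replicate block (5658 genes called in all). The study's cutoffs left 2 members lower, 2 other ERAD genes lower and 0 higher, and 583 of all genes. The length offset gave 3800 genes in all, 6 other ERAD genes higher and Atxn3 at 0.13. The fit of all 18 libraries gave 1572 genes, against 5960 in the main fit, with 3 other ERAD genes higher and 5 lower. Os9, near 0, changed sign with DESeq2 size factors (-0.0018), DESeq2's test (-0.0017), at least 10 counts (-0.00071), the length offset (-0.0091) and single libraries left out (-0.030 to 0.035). In TRAP, leaving out 1 library gave 1 to 2 members higher, Sel1l from -0.041 to 0.0051 and Herpud1 from -0.010 to 0.092. The length offset gave Herpud1 -0.18, Edem1 -0.12 and Irf3 0.71. Replicates 1 and 2 alone gave 500 genes, 0 members higher, 0 other ERAD genes higher and 1 lower, with Derl2 at 0.020, Herpud1 -0.42, Sel1l 0.027, Syvn1 -0.088, Edem2 -0.0019 and Os9 -0.042. Replicates 3 to 6 alone gave 4 members higher, and WT TRAP replicates 1 and 2 averaged gave 2. The study's cutoffs gave 0 members and 0 other ERAD genes, and 901 genes in all. In WT TRAP against WT cells, at least 10 counts left 2 members higher (Syvn1 -0.024, Atf6 -0.012), the study's cutoffs 1 (7719 genes, 5 other ERAD genes higher and 3 lower), the length offset gave Derl2 0.24 and Sel1l -0.35, at least 10 counts gave Sel1l -0.22, and single libraries left out gave Sel1l -0.055 to 0.026. The cause of these shifts was not tested.

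Same-numbered libraries did not deviate together (r from -0.046 to 0.015 in SVF-derived cells and -0.293 to 0.104 in TRAP). With the replicate block 1 member was higher in TRAP (Derl1 at 0.55, adjusted p = 0.0156, and 3632 genes in all), Irf3 stood at -0.36 (adjusted p = 0.0538), and the difference between the sets was called for 2 members rather than 3. No paired analysis was possible for WT TRAP against WT cells because these come from separate experiments. Depth limits Derl3 in TRAP, with at most 25 reads a library.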
